A study of Saccharomyces cerevisiae with 6 samples.

Results

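The genes described here make and turn over the membrane phospholipids of budding yeast, together with inositol and the storage lipid triacylglycerol. They were taken as a list of 35 genes by name: regulators of the inositol response, inositol synthesis and uptake, phosphatidic acid formation, the CDP-diacylglycerol route, the Kennedy route, cardiolipin, phosphatidate phosphatases, triacylglycerol synthesis and phospholipases B. Of these, 34 are described, and 31 of them had a spot named for them among the 5379 named genes of the array, with 1 spot each. Values on all 3 arrays were present for 29, which were tested with the other genes, 4312 in all. PGS1 had values on 2 arrays and LRO1 on 1. CHO1, PSD2 and NTE1 had no spot named for them in the annotation used and were not analysed here.

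The series compared Saccharomyces cerevisiae S288C, a laboratory reference strain, after 2 h with 12.6 µM zinc pyrithione, an antifungal zinc complex given in dimethyl sulfoxide, with cells grown for the same time without treatment. Both cultures were in YPD, a rich glucose medium, at 25 °C, and no mutation, transgene or solvent treatment of the control is given in the labels. On each of 3 two-colour cDNA arrays, one per independent biological sample, polyadenylated RNA of treated cells carried Cy5 and that of untreated cells Cy3. Each array was read at high and at low laser power, so that the 6 deposited columns stand for 3 replicates.

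High-power scans held values for 4693 to 5737 of 6912 spots and low-power scans for 1789 to 3372. The 3 pairs of arrays correlated with Pearson's r between 0.65 and 0.716 across genes, which do not count as replicates. Values below are log2 ratios of treated over untreated cells, so that 0 is no difference and 1 is 2-fold higher. That direction is likely, since treated cells are the first channel, but the deposited values do not state it, and all directions below would turn with it. Dyes were not exchanged on any array and the control is labelled as without treatment, so the compound, its solvent and the dye cannot be told apart.

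Yeast makes phosphatidic acid by adding acyl chains to glycerol 3-phosphate. Phosphatidic acid is then activated to CDP-diacylglycerol, the precursor of phosphatidylinositol, phosphatidylserine and cardiolipin, or is dephosphorylated to diacylglycerol, which feeds triacylglycerol and the Kennedy route from choline and ethanolamine. Phosphatidylserine is decarboxylated to phosphatidylethanolamine, which is methylated to phosphatidylcholine. Many of these genes are activated by the Ino2-Ino4 dimer when inositol is scarce and repressed by Opi1 when it is plentiful, and INO1 is the classical example. DPP1, CKI1, EKI1 and PAH1 are known to be induced through the activator Zap1 when zinc is scarce.

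Of the 29 genes tested, 3 rose and 2 fell in treated cells. OPI3, INO1 and CRD1 were higher, by 2.07-fold, 2.03-fold and 1.51-fold. ITR1 and SCT1 were lower, by 1.67-fold and 1.66-fold. A gene was called at a limma p below 0.05 after Benjamini-Hochberg adjustment over all 4312 genes. The 5 calls are 17.2% of the genes tested here, beside 17.7% of all genes, 8.12% of which were higher and 9.6% lower. The share of calls in the lipid list was thus close to that on the whole array. At an unadjusted p under 0.05 by limma, 6 of the 29 were higher and 5 lower, beside 740 and 746 of all 4312 genes. The median log2 ratio of the 29 genes was 0.02, beside 0.03 for all genes, and the median size regardless of sign was 0.33, beside 0.30.

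**Figure D1:**
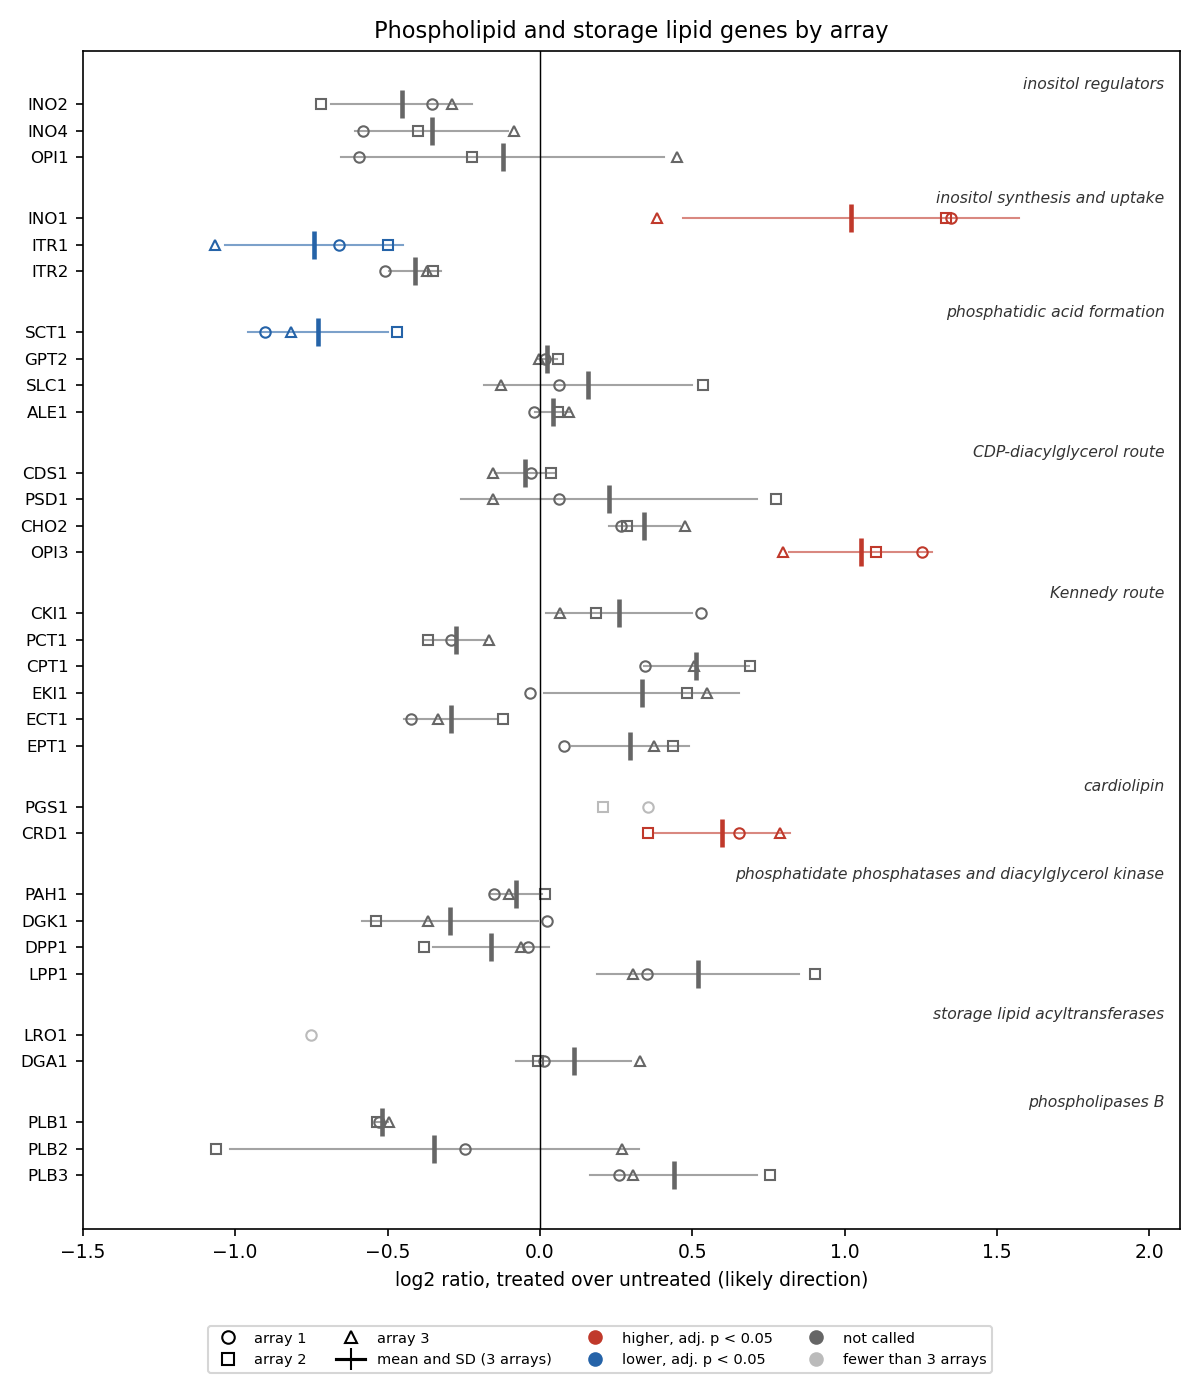
Log2 ratios (treated over untreated, likely direction) of the 31 members with a spot, by role. Open symbols are the 3 arrays, vertical ticks the mean and horizontal lines the SD of genes with 3 arrays. OPI3, INO1 and CRD1 (red) lie above 0 and ITR1 and SCT1 (blue) below 0 on every array, and most other members lie within 0.5 of 0.

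The list spanned means from -0.74 for ITR1 to 1.05 for OPI3, which ranked 106th from the top of 4312 genes. The largest responses on the array were therefore outside it. On all 3 arrays 18 of the 29 genes had the same sign (62.1%, beside 54.9% of all genes tested). The median SD between arrays was 0.23 on the log2 scale, beside 0.27 for all genes, and the smallest log2 ratio called anywhere on the array had a size of 0.54. That size holds for this fit and is not a detection limit. Larger means could also go uncalled, such as GPD1 at -0.76 ± 1.01, and in the high-power scans alone CRD1 was called at 0.47.

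**Figure D2:**
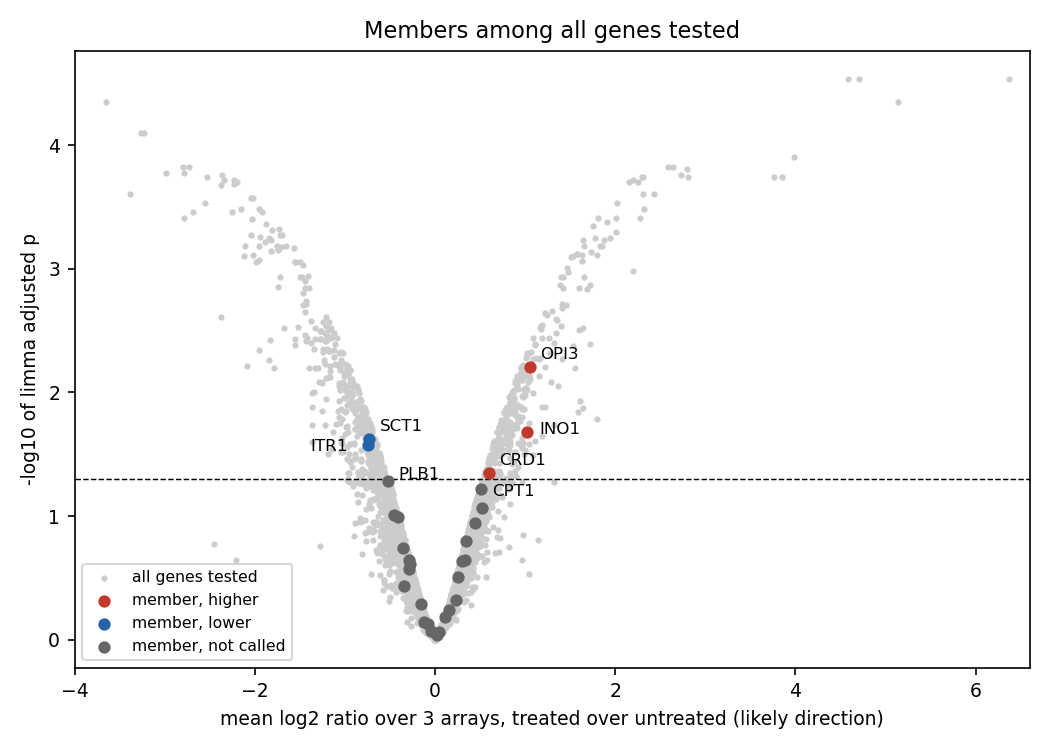
Mean log2 ratio over 3 arrays against -log10 of the limma adjusted p for all 4312 genes tested (light grey) and the 29 members (coloured). The dashed line is the threshold of 0.05. OPI3 is the member farthest above it, PLB1 (0.052) and CPT1 (0.061) lie just below it, and genes outside the list reach much larger ratios.

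Among the regulators of the inositol response, limma called 0 of 3, beside 17.7% of all genes, and 1 had an unadjusted p under 0.05. INO2, which encodes one partner of the activating dimer, stood at -0.35, -0.72 and -0.29 on arrays 1, 2 and 3 (mean -0.45 ± 0.23, SD, n = 3; limma adjusted p = 0.098). INO4, the other partner, stood at -0.58, -0.40 and -0.08 (mean -0.35 ± 0.25; limma adjusted p = 0.18). Both were below 0 on every array, and neither passed the threshold. OPI1, the repressor gene, differed in sign between arrays at -0.59, -0.22 and 0.45, with a mean of -0.12 ± 0.53. Without array 1 its mean was 0.11.

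Of the 3 genes of inositol synthesis and uptake, INO1 rose, ITR1 fell and ITR2 was not called. Among all genes, 8.12% rose and 9.6% fell. INO1 (YJL153C), which encodes the inositol-3-phosphate synthase that commits glucose 6-phosphate to inositol, had log2 ratios of 1.35, 1.33 and 0.39. All 3 were above 0, and array 3 was far below the others. The mean was 1.02 ± 0.55 (SD, n = 3; limma adjusted p = 0.021). ITR1 (YDR497C), the major plasma membrane inositol transporter gene, stood at -0.66, -0.50 and -1.07, all below 0 (mean -0.74 ± 0.29; limma adjusted p = 0.027). ITR2, its paralog, stood at -0.51, -0.35 and -0.37. Its mean of -0.41 ± 0.09 did not pass the threshold (limma adjusted p = 0.10), although it did in the high-power scans alone (-0.47, limma adjusted p = 0.043). INO1 rested on high-power scans alone, because no low-power scan held a value for it. Without array 1 or array 2 its mean was 0.86 or 0.87 and was no longer called (limma adjusted p = 0.12 and 0.11), whereas without array 3 it was 1.34 (0.0099).

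The call of ITR1 ended without any 1 array (limma adjusted p = 0.11, 0.064 and 0.093 without arrays 1, 2 and 3) and in the low-power scans alone (0.061), with means between -0.86 and -0.58. ITR1 was below ITR2 on each array, by 0.15, 0.15 and 0.69. Differences between members are given array by array and were not tested; an exact sign-flip test over 3 arrays cannot give a p below 0.25. The ITR genes are related in sequence, as are the SCT1 and GPT2, CPT1 and EPT1, and PLB genes, and a cDNA spot can bind transcripts of both relatives. How far that touched these values was not tested.

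In phosphatidic acid formation, 1 of 4 genes fell and 0 rose, with 0 also higher at an unadjusted p under 0.05 by limma. Among all genes, 9.6% fell and 8.12% rose. SCT1 (YBL011W), one of the glycerol-3-phosphate acyltransferase genes of the first step, stood at -0.90, -0.47 and -0.82, all below 0 (mean -0.73 ± 0.23, SD, n = 3; limma adjusted p = 0.024). GPT2, which encodes the other acyltransferase of that step, stood at 0.02, 0.06 and -0.0015, with a mean of 0.02 and a 95% interval from -0.33 to 0.37. SCT1 was thus below GPT2 by 0.92, 0.53 and 0.81 on the same arrays (mean difference -0.75 ± 0.20). The call of SCT1 ended without any 1 array, at means of -0.64, -0.86 and -0.68 without arrays 1, 2 and 3 (limma adjusted p = 0.15, 0.053 and 0.080). The lysophosphatidate acyltransferase genes of the next step were not called. ALE1 had a mean of 0.04 (95% interval -0.31 to 0.40) and SLC1 of 0.16 ± 0.34, where array 2 alone stood at 0.54.

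On the CDP-diacylglycerol route, 1 of 4 genes tested rose and 0 fell, with 0 lower at an unadjusted p under 0.05 by limma. Among all genes, 8.12% rose and 9.6% fell. CDS1, which encodes the CDP-diacylglycerol synthase at the head of the route, stood at -0.03, 0.03 and -0.16 and was not called (mean -0.05, 95% interval -0.41 to 0.31). The branch to phosphatidylcholine held the largest ratio of the list. OPI3 (YJR073C), which encodes the methyltransferase of the later methylation steps, stood at 1.26, 1.10 and 0.80, all above 0 (mean 1.05 ± 0.23, SD, n = 3; limma adjusted p = 0.0063). It was above 0 in all 6 scans and was the one member still called at an adjusted p below 0.01. Without array 1 the mean was 0.95 and the limma adjusted p 0.052. CHO2, the gene of the first methylation, stood at 0.27, 0.29 and 0.48, all above 0 but not called (mean 0.34 ± 0.12; limma adjusted p = 0.16). On the same arrays CHO2 was below OPI3 by 0.99, 0.82 and 0.32. PSD1, the mitochondrial phosphatidylserine decarboxylase gene, stood at 0.06, 0.77 and -0.16, so that its mean of 0.23 ± 0.49 rested on array 2, and without that array it was -0.05.

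The Kennedy route builds phosphatidylcholine and phosphatidylethanolamine from choline and ethanolamine. Of its 6 genes, limma called 0, beside 17.7% of all genes. At an unadjusted p under 0.05 by limma, 1 of the 6 was higher and 0 lower, beside 740 and 746 of all 4312 genes. Both kinase genes and both terminal transferase genes had means above 0, and both cytidylyl transferase genes, which stand between them, had means below 0. The median size of the 6 regardless of sign was 0.295, beside 0.296 for all genes. CPT1, the cholinephosphotransferase gene, stood at 0.35, 0.69 and 0.50 (mean 0.51 ± 0.17, SD, n = 3; limma adjusted p = 0.061). It passed when the test was limited to genes with both scans on every array (limma adjusted p = 0.040). EPT1, the ethanolaminephosphotransferase gene, stood at 0.08, 0.44 and 0.37 (mean 0.30 ± 0.19), below CPT1 on each array by 0.27, 0.25 and 0.13.

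PCT1, the phosphocholine cytidylyl transferase gene, stood at -0.29, -0.37 and -0.17 (mean -0.28 ± 0.10; limma adjusted p = 0.24). ECT1, its counterpart for phosphoethanolamine, stood at -0.42, -0.12 and -0.33 (mean -0.29 ± 0.15; limma adjusted p = 0.23). PCT1 and ECT1 were thus below 0 on all 3 arrays, with means smaller than the smallest size called. The choline kinase gene CKI1 stood at 0.53, 0.18 and 0.07 (mean 0.26 ± 0.24) and the ethanolamine kinase gene EKI1 at -0.03, 0.48 and 0.55 (mean 0.33 ± 0.32). Array 1 was the highest for CKI1 and the lowest for EKI1.

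Cardiolipin, the phospholipid of the mitochondrial inner membrane, is made by phosphatidylglycerolphosphate synthase and cardiolipin synthase. CRD1 (YDL142C), the cardiolipin synthase gene, stood at 0.65, 0.35 and 0.79, all above 0 (mean 0.60 ± 0.22, SD, n = 3; limma adjusted p = 0.045). PGS1, the gene of the preceding synthase, stood at 0.36 and 0.21 on arrays 1 and 2, and in a fit of genes with at least 2 arrays its limma adjusted p was 0.39. CRD1 was close to the threshold: its call ended when each scan was centred on its median (0.55, limma adjusted p = 0.055), in the fit of genes with at least 2 arrays (0.054), and without any 1 array (0.20, 0.084 and 0.13 without arrays 1, 2 and 3, with means of 0.57, 0.72 and 0.50).

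Of the 4 genes of phosphatidate phosphatases and diacylglycerol kinase, limma called 0, beside 17.7% of all genes. Of these 4, 1 had an unadjusted p under 0.05 by limma. PAH1, the phosphatidate phosphatase gene that directs lipid toward triacylglycerol, had a mean of -0.08 (95% interval -0.43 to 0.28). DGK1, whose kinase runs the reverse reaction, stood at 0.02, -0.54 and -0.37 (mean -0.29 ± 0.29). LPP1, which encodes a membrane lipid phosphate phosphatase, stood at 0.35, 0.90 and 0.30 (mean 0.52 ± 0.33; limma adjusted p = 0.085), and passed in the high-power scans alone (0.57, limma adjusted p = 0.038). DPP1, which encodes the vacuolar diacylglycerol pyrophosphate phosphatase, stood at -0.04, -0.38 and -0.06 (mean -0.16 ± 0.19). LPP1 was above DPP1 on each array.

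The last step of triacylglycerol synthesis was measured in full for DGA1 alone. DGA1, the acyl-CoA-dependent diacylglycerol acyltransferase gene, stood at 0.01, -0.01 and 0.33, with a mean of 0.11 and a 95% interval from -0.26 to 0.49, so that limma made 0 calls in this group and 0 at an unadjusted p under 0.05. LRO1, whose enzyme takes the acyl chain from a phospholipid, had a single value of -0.75 on array 1, in the high-power scan, and could not be tested.

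For the phospholipase B genes, limma called 0 of 3, beside 17.7% of all genes. Of these 3, 2 had an unadjusted p under 0.05 by limma, in opposite directions. PLB1 had the closest replicates of the list, at -0.53, -0.53 and -0.49 (mean -0.52 ± 0.02, SD, n = 3; limma adjusted p = 0.052). It passed in the high-power scans alone, with each scan centred, and among genes with both scans on every array (limma adjusted p = 0.034, 0.039 and 0.032). PLB3, which encodes a phospholipase B that acts on phosphatidylinositol and phosphatidylserine, stood at 0.26, 0.76 and 0.31 (mean 0.44 ± 0.27; limma adjusted p = 0.11). PLB1 was below PLB3 by 0.79, 1.29 and 0.80, the largest mean difference among the 13 member pairs compared (-0.96 ± 0.29). PLB2 ranged from -1.06 on array 2 to 0.27 on array 3, and without array 2 its mean was 0.01.

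**Figure D3:**
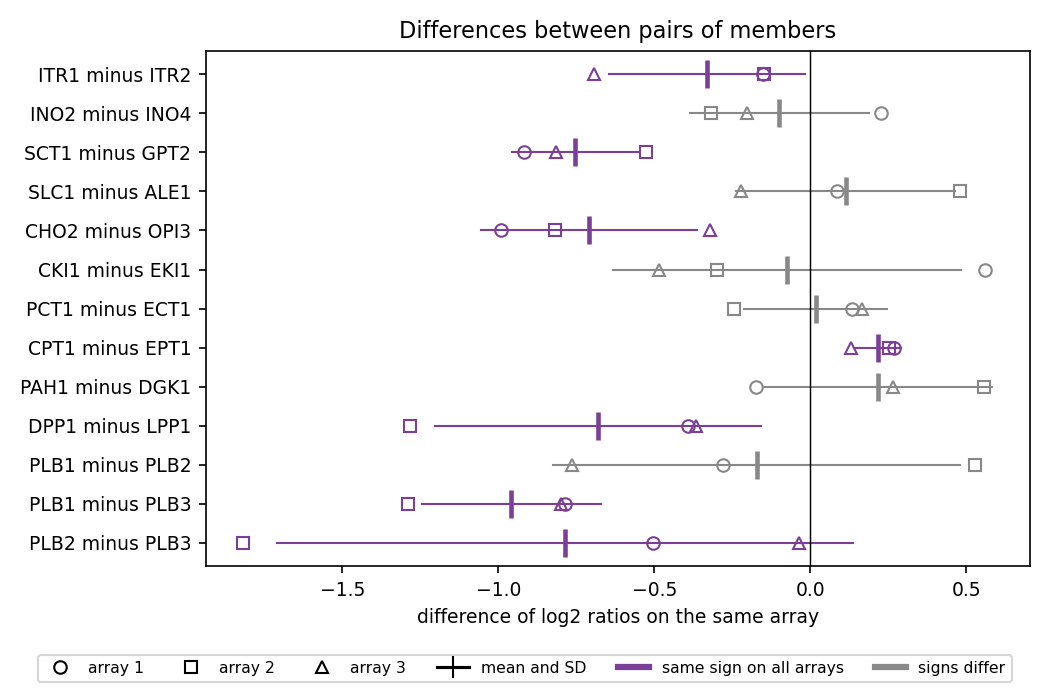
Differences of log2 ratios between pairs of members measured on the same array, the first gene minus the second. Open symbols are the 3 arrays, ticks the mean and lines the SD. In 7 of 13 pairs (purple) the difference had 1 sign on all arrays, with SCT1 minus GPT2 and PLB1 minus PLB3 farthest from 0 for their spread.

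Grouped by known regulation, the genes did not share a direction. The 12 tested members known to respond to inositol were INO1, INO2, OPI1, ITR1, CDS1, PSD1, CHO2, OPI3, CKI1, CPT1, EKI1 and EPT1. Of these, 2 rose and 1 fell (25%, beside 17.7% of all genes), with a median of 0.28. HNM1 (mean -2.02) and FAA1 (mean -0.37), further targets described below, were not counted in this group. INO1 and OPI3 were above 0 and ITR1 below 0 on every array. All of them are textbook targets of the Ino2-Ino4 pair, whose activity was not tested. Of the 4 genes named above as induced by zinc scarcity, limma called 0, beside 17.7% of all genes. Of the same 4, 0 had an unadjusted p under 0.05 by limma, and the median was 0.09. CKI1 and EKI1 belong to both groups.

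The scans of an array gave different ratios for some members. Both scans held a value in 60 cases, and in 16 of them the signs differed. The median size of the difference was 0.11, 0.13 and 0.27 for members on arrays 1, 2 and 3, beside 0.15, 0.19 and 0.28 over all genes. Array 3 thus held the larger disagreements. Among called genes on that array, OPI3 was 1.10 at high and 0.50 at low power, and CRD1 was 0.46 and 1.12. PLB2 had the largest difference, at -0.20 and 0.74.

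**Figure D4:**
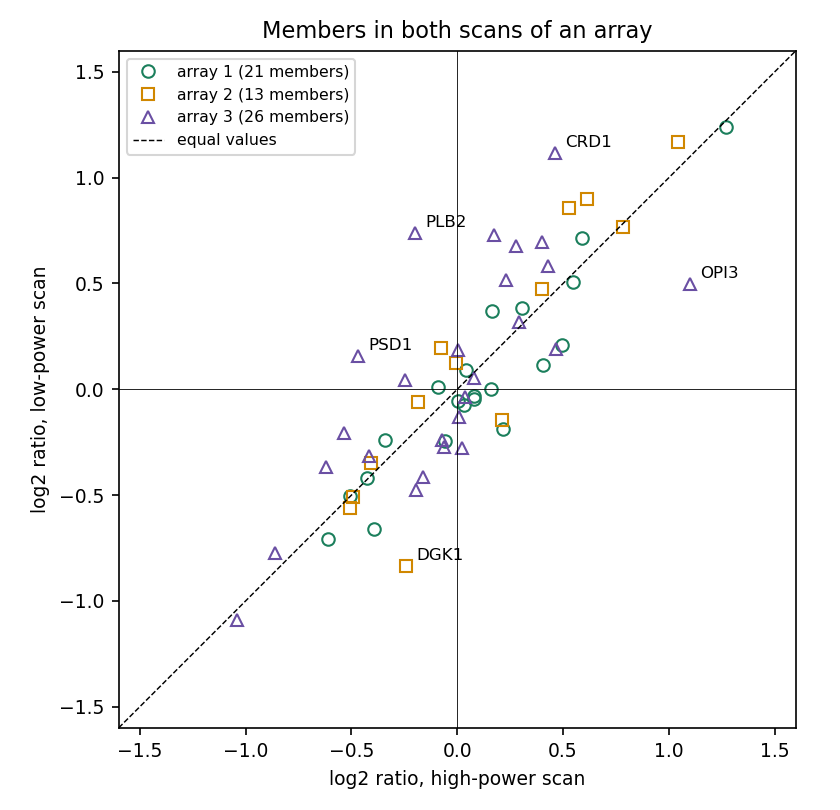
Log2 ratio in the low-power scan against the high-power scan of the same array, for members with both (21, 13 and 26 on arrays 1, 2 and 3). The dashed line marks equal values. Of the 5 named points farthest from it, 4 are from array 3 (triangles) and 1, DGK1, from array 2.

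Around this core, 93 further lipid genes in 8 lists were examined, of which 73 were tested. Of these, 8 rose and 9 fell, which is 23.3% beside 17.7% of all genes, with a median of 0.05. Like the member groups, these lists were chosen with earlier results of these data known. Their shares of calls describe the genes listed and were not tested. In cardiolipin assembly and mitochondrial lipid transfer, 0 of 10 genes rose (0 also at an unadjusted p under 0.05 by limma) and 4 fell, beside 9.6% of all genes, with a median of -0.39. The other 6 were not called, and 4 of the 10 had means above 0. UPS1, which encodes the carrier of phosphatidic acid to the inner membrane, stood at -1.004, -1.23 and -1.78 (mean -1.34 ± 0.40, SD, n = 3; limma adjusted p = 0.0045). TAM41, the mitochondrial CDP-diacylglycerol synthase gene, stood at -0.96, -1.21 and -0.67 (mean -0.95 ± 0.27; limma adjusted p = 0.011). UPS2, which encodes the carrier of phosphatidylserine, stood at -0.90, -1.21 and -0.61 (mean -0.91 ± 0.30; limma adjusted p = 0.014).

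The 4th was MDM35, named after its values were seen, whose protein binds both carriers, at -0.60 ± 0.24 (limma adjusted p = 0.047; 0.051 with quantile normalization and 0.057 in the fit of genes with at least 2 arrays). GEP4, also named after its values were seen, encodes the phosphatase of the step before CRD1; it stood at 0.56 and 0.95 on arrays 1 and 2 and was not tested. The remodelling genes TAZ1 (mean 0.24 ± 0.30) and CLD1 (mean 0.15 ± 0.11) were not called. The call of UPS1 held without each array in turn. TAM41 and UPS2 lost theirs without array 1 or 2 (limma adjusted p between 0.066 and 0.082), and MDM35 without any 1 array (0.095, 0.19 and 0.13).

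**Figure D5:**
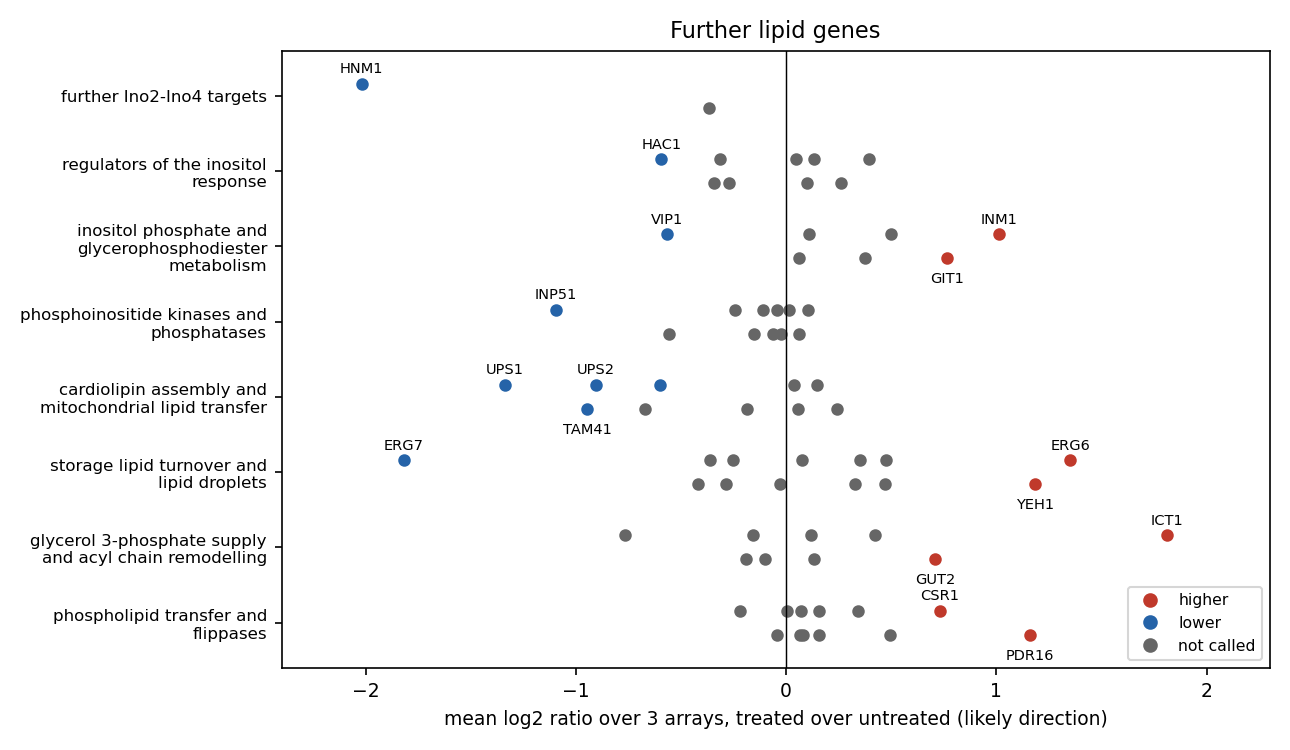
Mean log2 ratio over 3 arrays of 73 further lipid genes in 8 lists, with genes called higher in red, called lower in blue and not called in grey. Names mark the genes of the naming rule. Calls in the cardiolipin assembly list lie below 0, and HNM1, at -2.02, is the lowest point.

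Among further targets of Ino2-Ino4, 1 of 2 tested genes fell and 0 rose (0 at an unadjusted p under 0.05 by limma). Over all genes tested, 9.6% fell and 8.12% rose. HNM1, the choline transporter gene, stood at -2.12, -1.9985 and -1.94, which is 4.05-fold lower (mean -2.02 ± 0.09, SD, n = 3; limma adjusted p = 0.00027). Of 9 other regulators of the inositol response, 1 fell and 0 rose, with 0 higher at an unadjusted p under 0.05 by limma. The share called was 11.1%, beside 17.7% of all genes. HAC1, the transcription factor gene of the unfolded protein response, was the one that fell (-0.59 ± 0.17, limma adjusted p = 0.042). In the fit of genes with at least 2 arrays its limma adjusted p was 0.051.

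In inositol phosphate and glycerophosphodiester metabolism, 2 of 7 genes rose and 1 fell, with a median of 0.37. These calls were 42.9% of the 7 genes tested in the list, beside 17.7% of all genes. The list was chosen with earlier results known, so this share describes these 7 genes only. INM1, which encodes the inositol monophosphatase that completes the synthesis begun by the INO1 product, stood at 0.78, 1.25 and 1.01 (mean 1.01 ± 0.23, SD, n = 3; limma adjusted p = 0.0073). GIT1, the permease gene for glycerophosphoinositol, an external source of inositol, stood at 0.73, 0.72 and 0.85 (mean 0.77 ± 0.08; limma adjusted p = 0.015). VIP1, an inositol pyrophosphate kinase gene, fell to -0.57 ± 0.15 (limma adjusted p = 0.047; 0.057 in the fit of genes with at least 2 arrays). Of 11 phosphoinositide kinase and phosphatase genes, 1 fell and 0 rose, with 0 higher at an unadjusted p under 0.05 by limma. The share called was 9.09%, beside 17.7% of all genes. INP51, which encodes a phosphatase of phosphatidylinositol bisphosphate, was the one that fell (-1.09 ± 0.57, limma adjusted p = 0.018).

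In storage lipid turnover and lipid droplets, 2 of 13 genes rose and 1 fell, with a median of 0.08. That is 23.1% called, beside 17.7% of all genes. YEH1, a steryl ester hydrolase gene, stood at 1.26, 1.33 and 0.95 (mean 1.18 ± 0.20, SD, n = 3; limma adjusted p = 0.0036). The other called genes of this list encode sterol synthesis enzymes that reside on droplets: the sterol methyltransferase gene ERG6 rose (1.35 ± 0.27) and the lanosterol synthase gene ERG7 fell (-1.82 ± 0.24; limma adjusted p = 0.0026 and 0.00058). The triacylglycerol lipase genes TGL3 and TGL4 were not called. Of the 13 means of the list, 7 were above 0 and 6 below. At an unadjusted p under 0.05 by limma, 4 of the 13 were higher and 1 lower. In glycerol 3-phosphate supply and acyl chain remodelling, 2 of 9 rose and 0 fell (0 lower at an unadjusted p under 0.05 by limma). Calls here were 22.2%, also beside 17.7% of all genes. GUT2, the mitochondrial glycerol-3-phosphate dehydrogenase gene, stood at 0.64, 0.49 and 1.00 (mean 0.71 ± 0.26; limma adjusted p = 0.028). ICT1, a lysophosphatidic acid acyltransferase gene, was the highest of the further lipid genes at 1.82, 1.80 and 1.81.

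Of 12 genes of phospholipid transfer and flippases, 2 rose and 0 fell, with 0 lower at an unadjusted p under 0.05 by limma. The share called, 16.7%, was close to the 17.7% of all genes. One of the 12, SFH1, is by its locus tag (YLR321C) a chromatin remodelling gene and not the transfer protein gene of the same name, and it was not called. Those that rose were PDR16 (0.87, 1.14 and 1.46) and CSR1 (0.57, 0.63 and 0.99; limma adjusted p = 0.024), both of the Sec14 family of phosphatidylinositol transfer proteins. SEC14 itself was not called. Of the 17 further genes named, 7 kept their call without each array in turn, which were HNM1, UPS1, ERG7, ERG6, YEH1, ICT1 and PDR16. The other 10 lost it without at least 1 array, at limma adjusted p between 0.051 and 0.20. INM1 lost it without array 2 alone, INP51 without array 1 or 2, and HAC1, GIT1, VIP1, GUT2 and CSR1 without any 1 array. The values of INM1, GIT1, YEH1, PDR16 and UPS2 rested on high-power scans alone, because no low-power scan held a value for them.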

How the data were processed

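RNA of treated and untreated yeast was compared on 3 two-colour cDNA arrays, each scanned at 2 laser powers. The deposited values are log2 ratios of both channels, 1 column per scan; per the labels, the authors used spots with flag value 0 for LOWESS normalization. The log base was read from the values and the direction is likely but not stated. A value merged over scans and the spot intensities were not used here, so signal over background is unknown. LOWESS sets the average ratio near 0 and hides a shift shared by most transcripts.

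Of 6912 spots, 5446 had 1 gene in the platform annotation, 0 several and 1466 none. All 5446 matched RefSeq (assembly R64), used for names only. Spots of a gene and then both scans of an array were averaged where present. There were 0 unused sample columns. Genes with values on all 3 arrays (4312) were fitted with limma 3.58.1 in R 4.3.3. The fit used lmFit and eBayes, with the mean against 0, Benjamini-Hochberg over all genes and a threshold of 0.05. A check of the fit on simulated data required calls only at ratios larger than that of any member. The number of arrays limits the precision. Errors are SD over arrays; 95% intervals come from the fit. Lists are described by counts and medians, with no list test.

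Members and lists were chosen with earlier results of these data known. All members were named but 1, which was in the fit and is not reported here, and from each further list up to 3 called genes farthest from 0. Alternatives were single scans, both scans required, at least 2 arrays, centring, quantile normalization, robust eBayes, limma's treat, an adjusted p under 0.01, and each replicate left out. Figures were drawn with matplotlib 3.10.9.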

Additional observations from a re-analysis of the deposited data

How the results depend on the processing

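The 5 called members lost their call in 24 of 54 alternative values. Their sign could change only in single scans, with centring or with quantile normalization, and it did not. The other settings kept the same mean or averaged arrays that all had 1 sign for these genes. The other 24 tested members gained a call in 6 of 262 values and changed sign in 9. Quantile normalization and robust eBayes left the 3 higher and 2 lower members called. The low-power scans, with 13 members tested, called 1 higher (OPI3) and 0 lower (2 at an unadjusted p under 0.05 by limma). Of the 5 called members, only OPI3 and ITR1 could be tested in those scans. The high-power scans called 4 higher, adding LPP1, and 4 lower, adding ITR2 and PLB1. An adjusted p under 0.01 left 1 higher and 0 lower (5 at an unadjusted p under 0.05), and limma's treat against 1.5-fold left 0 higher and 0 lower (2 and 0 at an unadjusted p under 0.05). Without 1 replicate, counts lay between 0 and 2 higher and at 0 lower, which at an unadjusted p under 0.05 were 2 to 6 lower and, without replicate 1, 5 higher; these fits hold fewer arrays. Of the further genes, the main fit called 8 higher and 9 lower. The high-power scans called 11 and 11, centring 8 and 10, quantile normalization 8 and 8, and robust eBayes 8 and 9. The low-power scans and the requirement of both scans, with 17 tested, each called 1 and 1. At least 2 arrays gave 8 and 6, an adjusted p under 0.01 gave 5 and 3, and treat gave 2 and 2. Leaving out a replicate gave 4 to 5 and 3 to 7. Of the 7 lower without replicate 3, 6 were among the 9. The genes that changed sign were not called, and the cause was not tested: ALE1 stood at -0.013 in the high-power scans and -0.0059 with centred scans, CDS1 at 0.048 in the high-power scans, and GPT2 at -0.025 with centred scans. Without 1 replicate, CDS1 ranged from -0.092 to 0.0034, OPI1 from -0.409 to 0.114, PLB2 from -0.654 to 0.012, PSD1 from -0.045 to 0.419 and SLC1 from -0.032 to 0.300. Counts over all genes ran from 142 with treat to 1085 in the high-power scans, beside 764. Each ratio already pairs a treated with an untreated culture on 1 array, so the test of the mean against 0 was paired. The series has 1 group, so no groups could be compared. With 3 arrays and no intensities, a gene that was not called cannot be taken as unchanged.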
